A study of Mus musculus with 6 samples.

Results

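Isolated CpGs are CpG sites that stand alone in the genome. Here they are the autosomal CpGs of the deposited table whose nearest listed CpG on either side lies more than 300 bp away. The rule uses position only and no methylation value, and it was met by 446794 of 19595361 autosomal CpGs, or 2.28%. The table lists 20451903 CpGs in all. Whole-genome bisulfite sequencing was done on LSK cells sorted from mouse bone marrow, which carry Sca-1 and c-Kit but no markers of mature blood lineages and include the blood stem cells and early progenitors. The groups were Tet2/3 DKO cells (DKO, 3 samples), labelled as lacking both Tet2 and Tet3, and Wild Type cells (WT, 3 samples). The labels call the samples of a group biological replicates and give no strain, age, sex, deletion method or number of animals per sample, so p-values refer to the spread between these samples. The question was whether isolated CpGs lose methylation in CpG-poor megabases and gain it in CpG-rich ones when both enzymes are absent. It was set, and the isolated CpGs and their classes chosen, with earlier results of these data known. The values below are therefore no independent test of it.

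Methylation of mammalian DNA lies almost wholly on CpGs. It is laid down by Dnmt3a and Dnmt3b and copied to the new strand after replication by Dnmt1. Tet enzymes oxidise 5-methylcytosine to 5-hydroxymethylcytosine and further products, which can lead to loss of the mark. Bisulfite sequencing reads both marks as methylated. CpGs with no close neighbour are usually highly methylated in mammals. They are also the sites known to lose methylation gradually with cell division, mainly in CpG-poor, late-replicating domains. CpG-rich megabases hold most genes, CpG islands and active regulatory elements.

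A level below is methylated reads over all reads summed over a set of CpGs, in percent, and a difference is in percentage points, DKO minus WT. The samples held 83560585 to 111763872 reads at CpGs in DKO and 70815948 to 72747248 in WT. At isolated CpGs the mean depth was 4.29, 4.01 and 3.38 reads in DKO replicates 1, 2 and 3, against 2.98, 2.93 and 3.10 in WT replicates 1, 2 and 3. The depth was 0.712 to 0.874 times that of the other autosomal CpGs of the same sample. Reads called methylated on the mitochondrial genome, a measure of incomplete conversion, made up 1.71% ± 0.170 in DKO and 1.28% ± 0.0797 in WT (SD, n = 3 each). Over a segment of Tet2 on chromosome 3 the DKO samples had 0, 0 and 0 reads, against 109, 165 and 136 in WT. Over a segment of Tet3 on chromosome 6 they had 14, 0 and 0 reads, against 208, 231 and 169 in WT. Both segments were chosen from these data, as stretches where DKO reads are missing, so they describe the samples and test nothing. LSK surface markers were not checked, since methylation alone was measured.

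Isolated CpGs were spread unevenly over the genome. Autosomal 1 Mb bins with at least 1000 reads in every sample were ranked by the CpGs they list and split into 5 quintiles, numbered from the CpG-poorest. The 484 bins of the CpG-poorest quintile listed 318 to 5050 CpGs each, and the 483 bins of the CpG-richest quintile listed 10855 to 20441. The poorest quintile held 162204 isolated CpGs, 36.3% of them all, and 7.63% of its own CpGs were isolated. The richest quintile held 29017, or 6.49% of all isolated CpGs, and 0.472% of its own CpGs were isolated. Quintiles 2, 3 and 4 held 122998, 82069 and 50506. Members of the poorest quintile were also lonelier, with a median distance of 402 bp to the nearer neighbour and 666 bp to the farther one, against 359 and 511 bp in the richest quintile. A median of 38 other CpGs lay within 5 kb of a member in the poorest quintile and 86 in the richest. Only listed CpGs could count as neighbours, and each listed CpG had a read in at least 1 sample, so a CpG in sequence that no read reached was not seen.

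Over all autosomes, isolated CpGs were highly methylated in both groups and did not separate them. The level was 85.9%, 86.1% and 87.9% in DKO replicates 1, 2 and 3, against 86.9%, 86.8% and 87.2% in WT. DKO replicates 1 and 2 lay below every WT sample and DKO replicate 3 lay above every WT sample. The difference was -0.306 ± 0.636 points (SE, n = 3 each; two-sided exact permutation p = 0.7). Leaving out DKO replicate 3 gave -0.931 points, and leaving out DKO replicate 1 gave 0.0572 points. The other autosomal CpGs, which include the CpG islands, were at 81.5% ± 0.822 in DKO and 80.7% ± 0.312 in WT (SD, n = 3 each). CpGs just inside the 300 bp limit, at 301 to 310 bp, had 87.0% in DKO and 87.0% in WT, and those just outside it, at 291 to 300 bp, had 86.7% in DKO and 86.9% in WT.

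The group difference at isolated CpGs changed step by step with the CpG content of the megabase. It was -0.964, -0.635, -0.0147, 0.507 and 1.10 points from the CpG-poorest quintile to the richest. In the poorest quintile the level was 83.2%, 83.5% and 85.9% in DKO, against 85.1%, 85.0% and 85.4% in WT. DKO replicates 1 and 2 were thus below all WT samples there, while DKO replicate 3 was above them (exact permutation p = 0.4). Without DKO replicate 3 the difference was -1.80 points. In the richest quintile the level was 89.1%, 89.0% and 90.0% in DKO, against 88.4%, 88.0% and 88.4% in WT. There the lowest of the 3 DKO samples exceeded the highest WT sample (exact permutation p = 0.1, the floor of a design with 3 samples per group). After adjustment over the 5 quintiles both p-values were 0.5, so neither a loss in CpG-poor nor a gain in CpG-rich megabases passed a test by itself. The 95% Wilson interval of each of these levels had a half-width of 0.0923 to 0.202 points, which covers counting error only, so the spread among DKO samples was larger than counting error.

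**Figure D1:**
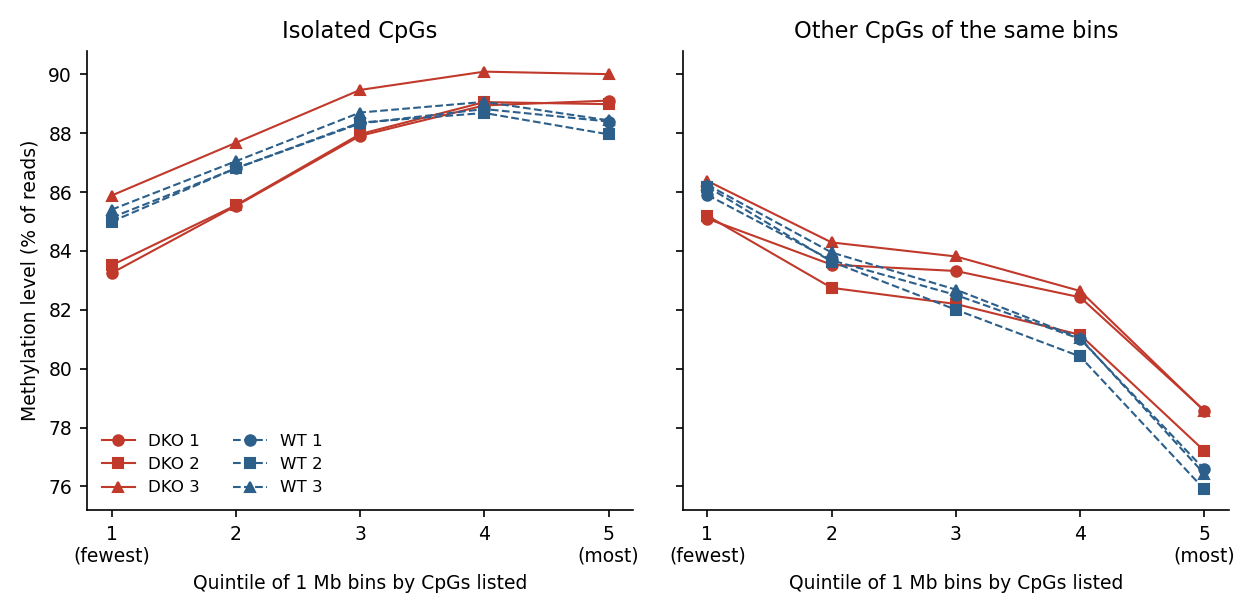
Methylation level (percent of reads, y axis, which does not start at 0) of each sample in the 5 quintiles of 1 Mb bins (x axis, fewest to most CpGs) for isolated CpGs on the left and the other CpGs of the same bins on the right; each line is a sample, red for DKO and dashed blue for WT. At isolated CpGs DKO replicates 1 and 2 start at 83.2% and 83.5%, below the WT samples, and end at 89.1% and 89.0%, above them.

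All DKO replicates stood higher against WT with each step in CpG content, but by unequal amounts, replicate 3 the least. Set against the WT mean, DKO replicate 1 stood at -1.93, -1.36, -0.554, 0.0878 and 0.843 points from the poorest quintile to the richest. DKO replicate 2 stood at -1.67, -1.33, -0.495, 0.200 and 0.722 points. DKO replicate 3 stood at 0.704, 0.787, 1.01, 1.23 and 1.74 points. DKO replicates 1 and 2 therefore crossed the WT level between quintiles 3 and 4, and DKO replicate 3 was above it throughout. A WT sample departed from the mean of the other two by at most 0.339 points in the poorest quintile and 0.455 points in the richest. The reads therefore showed a loss in CpG-poor megabases in 2 of 3 DKO samples and a gain in CpG-rich megabases in 3 of 3.

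**Figure D2:**
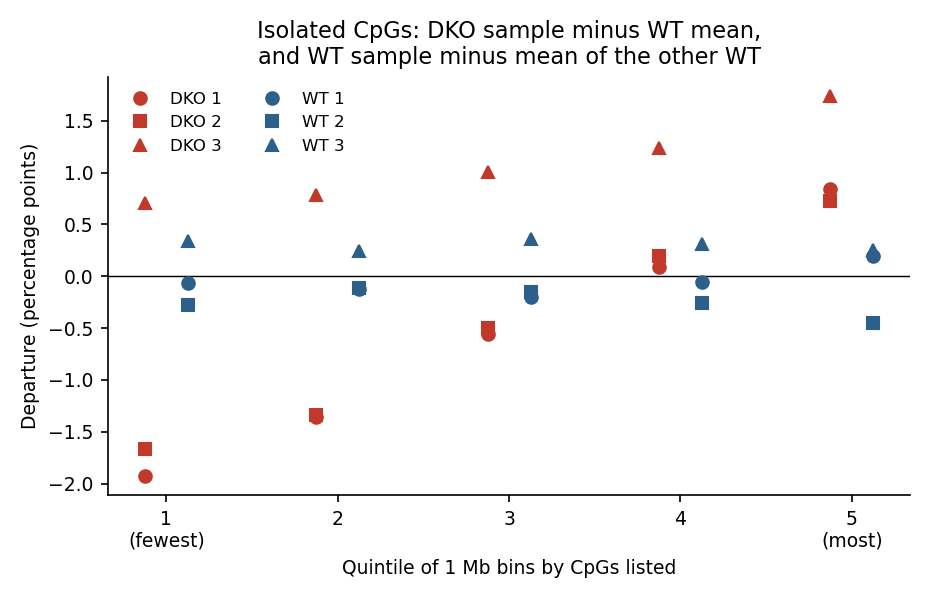
Departure of each sample at isolated CpGs (percentage points, y axis) by quintile of 1 Mb bins (x axis): DKO samples in red minus the WT mean, and WT samples in blue minus the mean of the other two WT samples. All 3 DKO replicates climb from the left to the right, replicate 3 from 0.704 to 1.74 points, while WT samples stay within 0.455 points of 0.

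Taking each sample as its own control removes a shift of a whole library. The level in the CpG-richest quintile minus that in the poorest was 5.86, 5.47 and 4.12 points in DKO, against 3.26, 2.97 and 3.03 points in WT. The groups did not overlap, with DKO higher and a difference of 2.07 ± 0.534 points (SE, n = 3 each; exact permutation p = 0.1, the smallest possible). The contrast was 1.71 to 2.58 points when any 1 sample was left out. It was 1.93 points when each CpG had one weight across all samples and 2.11 points after correction for the mitochondrial measure of conversion. Where each sample had 5 reads or more at a CpG it was 2.02 points, but the groups overlapped (exact permutation p = 0.2, n = 3 each). With high-copy windows left out as well it was 1.99 points, again with overlap (exact permutation p = 0.3, n = 3 each). Depth and the mitochondrial share were both higher in DKO, without overlap. The part of depth in the contrast was not tested beyond these values.

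The contrast appeared along most chromosomes. On all 19 autosomes the DKO mean was lower in the poorest quintile, by -0.481 to -1.25 points, and higher in the richest quintile, by 0.0552 to 1.90 points. The within-sample contrast was higher in DKO on all 19, and on 16 of them (84.2%) no DKO sample overlapped the WT samples. For the other CpGs the same held on 19 of 19 (100%), so separation along chromosomes was not a property of isolated CpGs alone. The largest contrast was on chromosome 17, at 8.16, 7.74 and 6.58 points in DKO and 3.68, 4.28 and 5.07 points in WT. The smallest was on chromosome 16, at 5.86, 5.35 and 3.86 points in DKO and 2.57, 4.81 and 6.10 points in WT, where the groups overlapped. In the richest quintile all DKO samples lay above all WT samples on 9 of 19 autosomes (47.4%; other CpGs, 19 of 19). In the poorest quintile they lay below on 0 of 19 (0%; other CpGs, 1 of 19, or 5.26%).

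**Figure D3:**
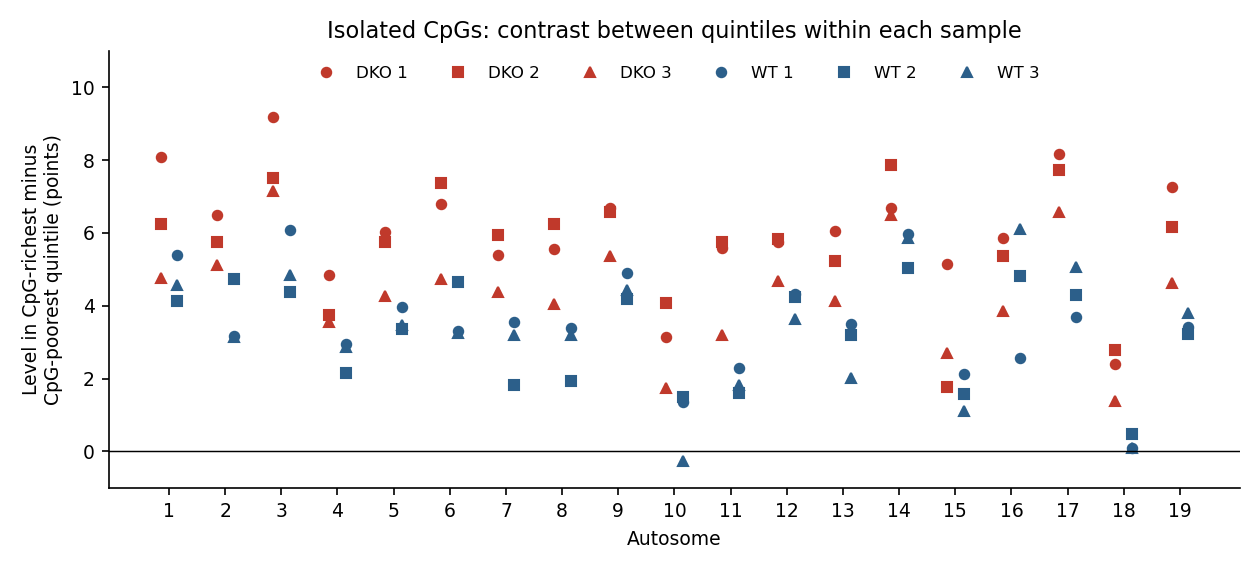
Level of isolated CpGs in the CpG-richest minus the CpG-poorest quintile of 1 Mb bins (percentage points, y axis) for each autosome (x axis); each point is a sample, red for DKO on the left of each pair and blue for WT on the right. DKO points lie above WT points on 16 of 19 autosomes, most widely on chromosome 17.

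Isolated CpGs were then set against the other CpGs of the same bins. The other CpGs had the opposite trend in level, lower in CpG-rich than in CpG-poor bins. They were at 85.6% ± 0.715 in DKO and 86.1% ± 0.183 in WT in the poorest quintile, and at 78.1% ± 0.786 in DKO and 76.3% ± 0.355 in WT in the richest (SD, n = 3 each). Their group differences were -0.554, -0.232, 0.712, 1.25 and 1.82 points from the poorest quintile to the richest. The gradient was therefore shared. The mean difference crossed 0 at a lower CpG content than for isolated CpGs, but among single samples only DKO replicate 1 did so. At the other CpGs it stood at -0.222 points in quintile 2 and 0.922 points in quintile 3. DKO replicate 2 crossed between quintiles 3 and 4 in both sets, and DKO replicate 3 was above the WT mean throughout in both.

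Within a sample, isolated CpGs exceeded the other CpGs of the richest quintile by 10.53, 11.78 and 11.45 points in DKO, against 11.82, 12.06 and 12.01 points in WT. The gap between the groups was thus narrow, from 11.78 points in DKO replicate 2 to 11.82 points in WT replicate 1. DKO samples lay below every WT sample, by -0.714 ± 0.382 points (SE, n = 3 each; exact permutation p = 0.1; adjusted over the 5 quintiles, 0.25). With 1 sample left out it was -0.978 to -0.352 points, the smallest without DKO replicate 1. The groups overlapped with isolation set at 200 bp (-0.600 points) or 500 bp (-1.05 points), with CpGs counted per 100 kb bin (-0.462 points) and after the mitochondrial correction (-0.672 points). In WT the isolated CpGs of that quintile stood at 88.3% and the others at 76.3%. No scale other than points was tried for sets at such unlike levels. Isolated CpGs of the poorest quintile stood at -1.85, -1.68 and -0.498 points relative to the others in DKO, against -0.769, -1.19 and -0.844 points in WT. The groups overlapped there, with a difference of -0.410 ± 0.444 points (SE, n = 3 each; exact permutation p = 0.4). The value was -0.832 points without DKO replicate 3. The contrast between the poorest and richest quintile, taken at isolated minus other CpGs, did not separate the groups (difference -0.304 ± 0.490 points, SE, n = 3 each; exact permutation p = 0.6). It did separate them, with DKO lower, for the mean of single-CpG levels (-0.449 points), with isolation over 1000 bp (-6.44 points) and without DKO replicate 2 (-0.738 points), so the comparison of slopes depended on the setting.

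Distance to the nearest neighbour was then graded more finely. In the richest quintile the difference was 1.80 ± 0.636 points for CpGs with the nearest neighbour at 2 to 30 bp, 2.15 ± 0.198 points at 31 to 100 bp and 1.68 ± 0.234 points at 101 to 300 bp. Among isolated CpGs it was 1.15 ± 0.354 points at 301 to 400 bp, 1.13 ± 0.460 points at 401 to 500 bp and 0.759 ± 0.398 points over 500 bp (SE, n = 3 each). The groups did not overlap in any of these 6 classes, DKO being higher. The difference was largest at 31 to 100 bp and smaller in the classes beyond it, and the closest class, at 2 to 30 bp, did not follow that order. The poorest quintile had values of -0.470 ± 0.250, -0.550 ± 0.576, -0.733 ± 0.717, -0.893 ± 0.831, -1.01 ± 0.810 and -1.07 ± 0.912 points for the same 6 classes. The groups overlapped in each of those, and DKO replicate 3 was above the WT samples in all but the closest class.

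The step between distance classes was compared within samples as well. Within the richest quintile, CpGs over 500 bp from a neighbour exceeded those at 31 to 100 bp by 3.11, 3.01 and 3.61 points in DKO, against 4.27, 5.01 and 4.62 points in WT. The difference was -1.39 ± 0.284 points (SE, n = 3 each; exact permutation p = 0.1), with no overlap. It was -1.36, -1.20 and -0.813 points in quintiles 4, 3 and 2, again with no overlap (exact permutation p = 0.1 each, n = 3). In the poorest quintile it was -0.515 ± 0.340 points, and the groups overlapped (SE, n = 3; exact permutation p = 0.4). The sign of the difference followed the quintile: it was negative in all 6 distance classes of the poorest quintile and positive in all 6 of quintiles 4 and 5, and varied with distance in quintiles 2 and 3 only.

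**Figure D4:**
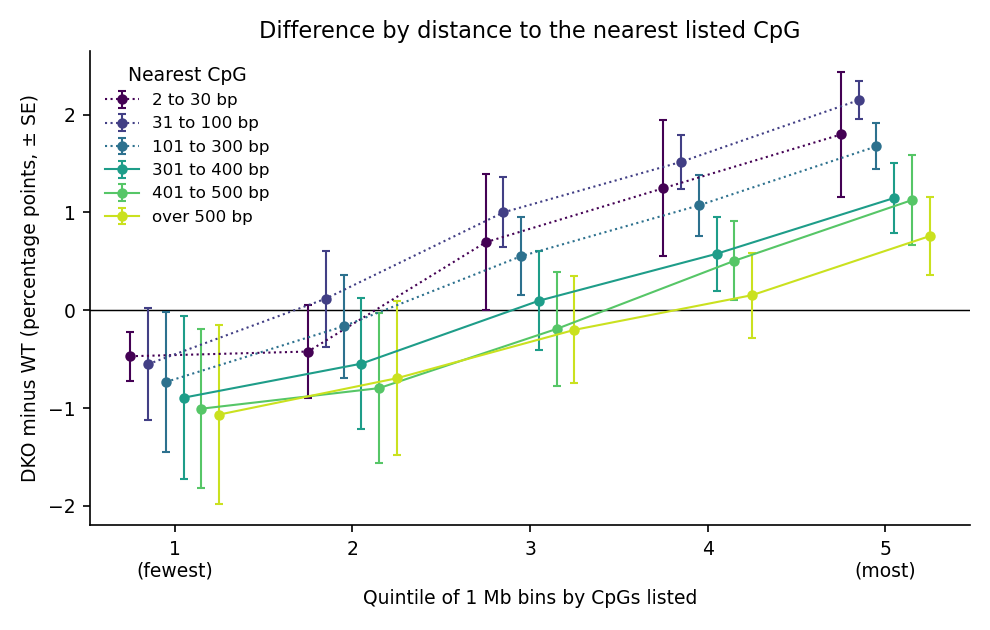
DKO minus WT difference (percentage points, mean ± SE over 3 samples per group, y axis) by quintile of 1 Mb bins (x axis); each line is a class of distance to the nearest listed CpG, solid for isolated CpGs and dotted for the others. In the richest quintile the line of CpGs at 31 to 100 bp ends at 2.15 points and that of CpGs over 500 bp away at 0.759 points.

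CpGs over 1000 bp from any other were few and departed from this pattern. They numbered 144 in the richest quintile, with 214 to 363 reads per sample, and 2235 in the poorest. Those of the richest quintile had 85.4%, 82.2% and 81.0% in DKO, against 87.9%, 92.2% and 86.5% in WT, so that all DKO samples lay lower (difference -6.00 ± 2.16 points, SE, n = 3 each; exact permutation p = 0.1). Those of the poorest quintile had 80.2%, 81.2% and 84.2% in DKO, against 83.8%, 83.7% and 84.0% in WT. The first of these values rests on few sites.

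Isolated CpGs were also grouped by the number of CpGs within 5 kb, a measure of their immediate surroundings. In the richest quintile the difference was 1.31 ± 0.306 points where 69 or more lay within 5 kb (20329 isolated CpGs) and -0.159 ± 0.551 points where 34 or fewer did (658 isolated CpGs). The same classes of the poorest quintile had -0.925 ± 0.742 points (5716) and -1.07 ± 0.946 points (59731; SE, n = 3 each). Where 34 or fewer lay within 5 kb, quintiles 2, 3 and 4 had -0.802, -0.866 and -1.08 points, each with overlap. That class thus showed no stepwise climb. Its within-sample contrast between the richest and poorest quintile differed by 0.914 ± 0.567 points, with overlap (SE, n = 3 each; exact permutation p = 0.3). In each denser class that contrast was higher in DKO without overlap, by 1.35 to 2.24 points. The within-sample step from the sparsest to the densest surroundings was 4.16 ± 0.630 points in DKO and 2.69 ± 0.233 points in WT in the richest quintile, with no overlap (SD, n = 3 each; exact permutation p = 0.1). The step was 0.996 ± 0.569 points in DKO and 0.848 ± 0.322 points in WT in the poorest quintile, with overlap (SD, n = 3 each; exact permutation p = 0.8). Whether these steps differ between the quintiles was not tested.

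Isolated CpGs were further grouped by their distance to a CpG-dense 1 kb window, one with 20 or more CpGs. In the poorest quintile the difference was -0.882, -1.0, -0.953 and -0.916 points at up to 10 kb, 10 to 50 kb, 50 to 200 kb and over 200 kb from such a window. Within the richest quintile it was 1.23 ± 0.283 points at up to 10 kb and 0.936 ± 0.459 points at 10 to 50 kb, with all DKO samples above WT in both. At 50 to 200 kb (1039 isolated CpGs) it was 0.518 ± 0.926 points, and the groups overlapped (SE, n = 3 each). The values thus fell in order with distance in the richest quintile, within errors that are wide for the farthest class, and showed no order in the poorest. Many isolated CpGs had isolated neighbours. For 242345 of them neither adjacent CpG was isolated, and the difference was -0.109 ± 0.588 points. For 35771 both were, and it was -0.616 ± 0.806 points (SE, n = 3 each). The groups overlapped in both.

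Summed per 1 Mb bin, the median difference had opposite signs at the ends of the density scale, and few single bins passed a test. Bins needed 200 reads at isolated CpGs in every sample. This held for 476 of the 484 bins of the poorest quintile, 190 of the 483 bins of the richest, and 2084 bins in all. A quasi-binomial test moderated with limma called 3 of them at an adjusted p under 0.05 (0.144%), 1 higher (0.048%) and 2 lower (0.096%) in DKO. For the other CpGs of the same bins it called 152 (7.29%), 149 higher (7.15%) and 3 lower (0.144%). Those CpGs carry many more reads, and when they were thinned to the reads of the isolated CpGs, a step chosen after seeing the data, the count was 0. The low count therefore does not set isolated CpGs apart. In simulated data this test called 0% of isolated-CpG bins changed by 2 points and 37.5% of those changed by 4 points. At an unadjusted p under 0.05 there were 48 bins higher and 105 lower for isolated CpGs, against 407 higher and 12 lower for the other CpGs, or 87 and 53 when these were thinned. Without DKO replicate 3, the sample above WT in the poorest quintile, the test called 53 of the 2084 bins, 5 higher and 48 lower. The other CpGs were not tested without that sample, so this count has no background.

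The median difference per bin was -1.04, -0.669, -0.0149, 0.552 and 1.19 points from the poorest quintile to the richest. The share of bins with a lower DKO mean was 74.2%, 66.5%, 50.2%, 39.7% and 28.4%. For the other CpGs of these bins it was 80.0%, 48.2%, 19.2%, 5.30% and 4.74%. At isolated CpGs all DKO samples lay below all WT samples in 10.3% of the 476 tested bins of the poorest quintile and above them in 0.420%. In the 190 tested bins of the richest quintile these shares were 2.11% and 10.0%. Over all tested bins the same shares were 6.05% lower and 5.47% higher, against 1.54% lower and 21.3% higher for the other CpGs. By sample, DKO replicates 1 and 2 lay below every WT sample in 61.1% and 55.0% of the poorest bins, and DKO replicate 3 in 14.5%. They lay above every WT sample in 5.25% and 7.35% of these bins, and DKO replicate 3 in 38.9%. The 3 DKO replicates, in the richest quintile, lay above every WT sample in 34.2%, 28.9% and 44.7% of the tested bins, and below in 17.9%, 14.7% and 7.37%.

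**Figure D5:**
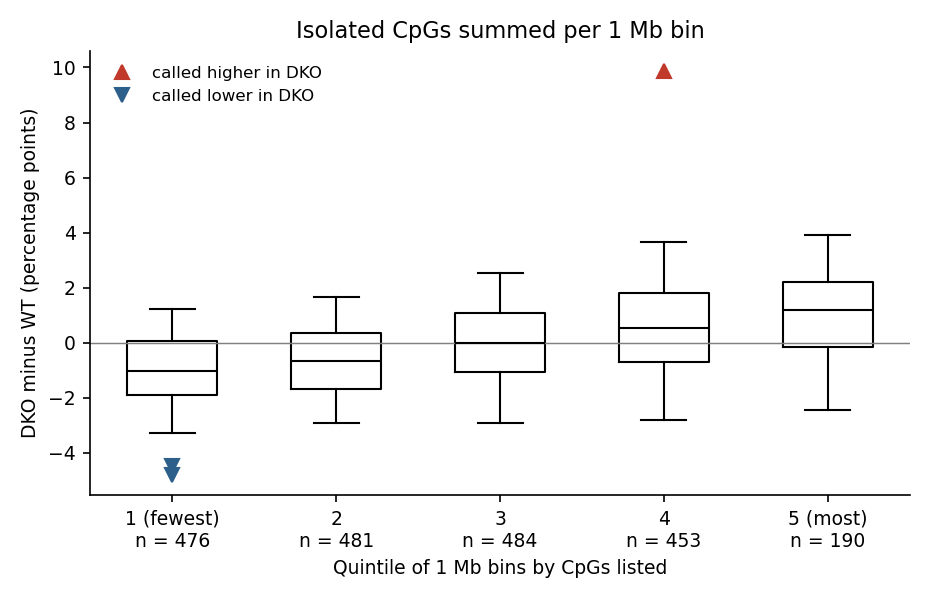
DKO minus WT difference of isolated CpGs summed per 1 Mb bin (percentage points, y axis) by quintile of bins (x axis, with the number of bins tested); boxes show the quartiles, lines the median, whiskers the 5th and 95th percentiles, and triangles the bins called. The median climbs from -1.04 to 1.19 points, and the called bins are 2 lower ones in the poorest quintile and 1 higher one in quintile 4.

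The bin called higher was on chromosome 17, 32000001 to 33000000 (mm9; 113 isolated CpGs, 351 to 579 reads per sample). Its isolated CpGs had 92.6%, 90.3% and 92.9% in DKO, against 80.6%, 83.8% and 81.8% in WT. The groups were far apart, with a difference of 9.87 points (adjusted p = 0.000599, limma-moderated quasi-binomial test). Its other CpGs also differed, at 79.6% in DKO and 77.0% in WT (adjusted p = 0.0217, same test).

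Both bins called lower were on chromosome 6 in the poorest quintile. At 27000001 to 28000000 (mm9; 348 isolated CpGs, 966 to 1370 reads) the level was 85.8%, 86.9% and 87.3% in DKO, against 92.0%, 92.5% and 89.9% in WT (difference -4.81 points; adjusted p = 0.0359 by the same test). At 45000001 to 46000000 (401 isolated CpGs, 1045 to 1487 reads) it was 84.9%, 84.8% and 89.1% in DKO, against 91.3%, 90.6% and 90.3% in WT (difference -4.46 points; adjusted p = 0.0447 by the same test). DKO replicate 3 was lower than every WT sample in these bins too. Their other CpGs differed by -0.273 and -0.642 points, with adjusted p = 0.869 and 0.781 by the same test. Neither loss was called with reads thinned to equal depth, with limma on log2 ratios or without 1 of DKO replicates 1 and 2 or WT replicates 1 and 2, and the gain on chromosome 17 was not called without WT replicate 1. No mm9 gene annotation was used, so genes in these bins are not named.

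No single isolated CpG was called. At least 5 reads in every sample were found at 3612 isolated CpGs among 218834 autosomal ones, and the same test, fitted over all of these, called 0 of either (0%). At an unadjusted p under 0.05 there were 55 isolated CpGs higher and 52 lower in DKO, together 2.96% of those tested. Among all CpGs tested there were 4929 and 1988, together 3.16%, so the shares were alike. Complete switches were also rare. Reads were pooled within groups for this count, with a minimum of 10 per group and so no replicate check, and 7 of 138411 isolated CpGs were at 90% or more in DKO and 10% or less in WT, and 2 were the reverse. For the other CpGs the counts were 1430 and 108 of 8046532. High-copy windows, those over 3 times the median depth, were left out of these counts.

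Single sites were also described by how many of their reads were methylated. Thinned to 5 reads per sample, isolated CpGs of quintile 2 (919 sites) had all reads methylated at 58.9%, 60.0% and 60.6% of sites in DKO, against 62.6%, 62.1% and 63.1% in WT. No DKO sample reached the WT samples (exact permutation p = 0.1, n = 3 each). Sites with 2 or 3 methylated reads of 5 made up 20.3%, 17.8% and 17.7% in DKO, against 17.4%, 17.6% and 17.5% in WT, with no overlap (exact permutation p = 0.1, n = 3 each). Sites with 0 or 1 methylated read made up 3.73% in DKO and 3.66% in WT, and the groups overlapped. In the poorest quintile (628 sites) fully methylated sites were 53.9% ± 1.98 in DKO and 56.1% ± 1.75 in WT (SD, n = 3 each), with overlap. Of the 5 quintiles, quintile 2 was the one where fully methylated sites separated the groups. The difference was -0.421 points in quintile 3, 1.73 points in quintile 4 and 0.933 points in quintile 5. Sites with 2 or 3 methylated reads separated the groups in quintile 5 too, but with DKO lower, at 12.1% against 12.9% in WT (exact permutation p = 0.1, n = 3 each). These p-values were not adjusted over the quintiles and classes compared. Over all isolated sites the share of fully methylated sites was 64.1% in DKO and 65.0% in WT, with overlap (exact permutation p = 0.3, n = 3 each). The other CpGs had 62.9% in DKO and 60.7% in WT, with DKO higher and no overlap (exact permutation p = 0.1, n = 3 each). These 3288 sites are the deepest of the members and need not stand for the rest.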

How the data were processed

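Whole-genome bisulfite sequencing of sorted LSK cells gave 1 table with, per sample and CpG, methylated and total reads. These values are raw counts as deposited by the authors. Reads were mapped to mm9 with BSMAP 2.74, per the submitters' processing notes. How reads were trimmed, filtered or freed of duplicates is not given in the sources used here. Duplicates or incomplete conversion could shift levels.

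Counts were summed over CpG sets and expressed in percent. Distances run from start to start. Groups were compared over samples by two-sided exact permutation tests (SciPy 1.17.1), whose smallest p for 3 against 3 is 0.1. Bins of 1 Mb (200 reads at isolated CpGs in every sample) and single CpGs (5 reads in every sample) were tested by a quasi-binomial model with dispersion moderated by limma 3.58.1 in R 4.3.3 and Benjamini-Hochberg adjustment, at an adjusted p under 0.05 and, for single CpGs, a difference of at least 10 points. The bin test was also run with limma on log2 ratios. Of bins called, the 3 per direction with the largest difference and no overlap were to be named. The number of reads at isolated CpGs per bin differed beyond sampling noise in every pair of replicates of a group (chi-square per degree of freedom 1.83 to 3.50). This concerns depth and not methylation level. The isolated CpGs and their classes were chosen with earlier results of these data known. The bin test was checked on simulated data for the isolated CpGs, with 200 bins changed by a known amount. It called 0% of bins changed by 2 points, 37.5% of those changed by 4 points and 81.5% of those changed by 6 points. Of the unchanged bins in these runs it called 0%, 0.318% and 0.425%. Simulated samples varied independently around the level of their group, without a shift of a whole sample such as that of DKO replicate 3. The single-CpG test and the permutation tests were not checked in this way. Wilson intervals cover counting error only. Sequences and genes were not used here.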

Additional observations from a re-analysis of the deposited data

How the results depend on the processing

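The difference in the poorest quintile was negative under 18 of 18 alternatives (-1.95 to -0.481 points) and separated the groups only without DKO replicate 3 (-1.80 points). The richest quintile was positive and separated in 17 of 18, and the contrast between the quintiles was positive in 17 of 18 and separated in 15. The contrast lost its separation at 5 reads in every sample, with high-copy windows (2.02 points) and without them (1.99 points), where the richest quintile was 0.768 and 0.543 points. Isolated minus other CpGs of the richest quintile were separated in 14 of 18, and their contrast between the quintiles in 3 of 18. The exception in sign for the richest quintile and the contrast was isolation over 1000 bp (144 CpGs in the richest quintile), at -6.00 and -4.05 points. Quintile 3, -0.0147 points, was 0.156 points at 200 bp, 0.0777 points with CpGs counted per 100 kb bin and -0.525 to 0.255 points with 1 sample left out. Quintile 4 was -0.378 points with 5 reads in every sample and 0.492 points with high-copy windows also left out, a step chosen after seeing the data. With 1 sample left out, all isolated CpGs gave -0.931 to 0.0572 points, and the isolated minus other contrast -0.738 to 0.0197 points. The 3 bins called became 0 at 500 reads per bin, 1 at 200 bp, 0 at 500 bp, 1 with reads thinned to equal depth, 1 with limma on log2 ratios, 173 with Fisher's exact test on pooled reads and 0 to 53 with 1 sample left out; 53 was without DKO replicate 3 (5 higher, 48 lower) and 0 without WT replicate 1. Other CpGs were not tested with a sample left out. Their 152 bins called became 0 when thinned. The cause was not tested. Departures of DKO and WT samples from their group means per bin were at most weakly correlated, with r -0.00599 to 0.0398 for same-numbered pairs. For different-numbered pairs r was -0.0467 to 0.00943. With the replicate block 3 bins were called, and the contrast was 2.07 points (exact sign-flip permutation p = 0.25, the smallest possible). Depth limits single CpGs: 207 isolated CpGs had 10 reads in every sample, and 0 were called.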

Other observations

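The X chromosome stands outside the autosomal rule and held 50549 CpGs that meet the same distance limit. Their level was 84.4%, 84.3% and 86.7% in DKO replicates 1, 2 and 3, against 85.6%, 85.6% and 86.1% in WT. As in the CpG-poorest autosomal bins, DKO replicates 1 and 2 lay below the WT samples and DKO replicate 3 above them. The difference was -0.629 ± 0.810 points (SE, n = 3 each; exact permutation p = 0.4). The other CpGs of the X chromosome had 82.3% ± 0.859 in DKO and 82.2% ± 0.295 in WT (SD, n = 3 each), which did not separate the groups (exact permutation p = 0.9).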
